A study of Mus musculus with 5 samples.

Results

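Replication-dependent histone genes were examined in bulk RNA-seq of mouse prostate tumors, as the rows of the count table whose symbol begins with Hist1h, Hist2h, Hist3h or Hist4h. There were 9 such rows among 24527. All 9 carried Hist1h symbols, with 4 for histone H2A, 3 for H2B and 2 for H4, and none for the linker histone H1 or for H3. The current symbols of the same genes (H2ac, H2bc, H3c and H4c names, and H1f1 to H1f6) matched 0 rows. RefSeq holds 70 mouse genes with a present or older Hist symbol, and the other 61 were not analysed here. The 9 rows are therefore a small part of the family, and they cannot stand for its total output.

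Replication-dependent histone genes supply the core and linker histones that package newly copied DNA, and their mRNAs accumulate in S phase and are degraded when DNA synthesis stops. They lie in clusters, lack introns, and end in a short conserved stem-loop in place of a poly(A) tail. The stem-loop is bound by SLBP (stem-loop binding protein), which carries the mRNA through 3′ end cleavage, export and translation. Replication-independent histones such as H3.3 come from ordinary polyadenylated genes that are transcribed throughout the cell cycle.

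The libraries came from prostatic tumor tissue of TripleTg mice, which carry a human HGF transgene (hHGFtg), a conditional human MET transgene (H11 hMET/+), a conditional allele that yields stabilized β-catenin (Ctnnb1 L(Ex3)/+) and PB Cre4, on a background of mixed C57BL/6 and C3H SCID origin. Castrated mice (n = 3) were operated on at 4 months of age and analysed at 8 months, and intact mice (n = 2) were taken at the same 8 months with the same 4 alleles, so no library comes from a prostate without them. HGF was expressed ubiquitously, while Cre from the probasin promoter acts in prostate epithelium, so MET and β-catenin were altered in epithelial cells only of a whole-tissue sample. Because the libraries were depleted of ribosomal RNA, not selected for poly(A), mRNAs that end in a stem-loop were not removed by the library design. Total counts were 28015507, 18951782 and 20492061 in castrated replicates 1 to 3, and 21560355 and 22853501 in intact replicates 1 and 2, so that 3 counts, taken as the floor of detection, corresponded to 0.107, 0.158, 0.146, 0.139 and 0.131 CPM (counts per 1000000 counts of the library) in that order.

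The libraries did not all match the labelled tissue equally. The luminal keratin Krt8 ranged from 623 to 1195 CPM over the 5 libraries and was abundant in each. Pbsn, the androgen-dependent gene whose promoter drives Cre, was at 0.464, 0 and 0.244 CPM in the castrated libraries, at 0 CPM in intact replicate 1 and at 4.90 CPM in intact replicate 2 (Pbsn was chosen after its values were seen). Intact replicate 1 was thus as low in Pbsn as the castrated tumors. Over 11 adipocyte genes the summed level was 66.2, 1223 and 1240 CPM in castrated replicates 1 to 3 against 54.2 and 94.7 CPM in the intact libraries, so castrated replicate 1 was set apart from the other castrated tumors. Results are given with and without these libraries where they move, for some single genes only in the section on processing.

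The sequences that define the family were read from the GENCODE mouse transcripts (release M21, GRCm38) to see which rows name genes of this kind. The 3′ ends of 5 of the 9 genes held a stem-loop, defined as a stem of 6 bases beginning with GG, a loop of 4 bases beginning with TTT, and the reverse complement of the stem. Each is shown 5′ to 3′ with the stem-loop in capitals, flanked by 5 bases before and 3 bases after it.
Hist1h2bp, H2B, chr13:21787918-21787941, plus strand: acaaaGGCTCTTTTCAGAGCCacc
Hist1h2ao, H2A, chr13:21810893-21810916, plus strand: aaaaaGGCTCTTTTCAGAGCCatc
Hist1h2ap, H2A, chr13:21833026-21833049, minus strand: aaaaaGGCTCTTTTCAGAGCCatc
Hist1h4m, H4, chr13:21812124-21812147, plus strand: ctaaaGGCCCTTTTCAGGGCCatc
Hist1h4n, H4, chr13:21831795-21831818, minus strand: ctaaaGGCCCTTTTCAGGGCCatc

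The H2A and H2B genes shared one stem, and the H4 pair had another that differs inside the stem. For Hist1h2bp the match was in the 469-base transcript, and none was found in the 621-base transcript. Its row had a length of 0.644 kb over a span of 1726 bases. Which of the transcripts gave its counts was not tested. This stem-loop was present in 0.0832% of 141767 GENCODE transcripts and in 44 of the 70 genes that GENCODE names Hist1h to Hist4h. No match was found in the GENCODE transcripts of Hist1h2an, Hist1h2bq, Hist1h2br and Hist1h2al. Bases beyond the annotated transcripts were not searched. The shortest transcripts of Hist1h2bq and Hist1h2br were 381 bases each, and whether a stem-loop follows their ends was not tested. For Hist1h2an the transcript is only 393 bases long and spans chr13:21786826-21787218, inside the row's own span of chr13:21786774-21787248, so its 3′ end was not searched whole.

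The row that carried most of the counts was not a histone gene of the cluster. Hist1h2al (NR_132443.1, chr13:51200084-51203066, minus strand) is a transcribed pseudogene in RefSeq and a processed pseudogene of 339 bases in GENCODE, and 88.6% of its row lay outside that pseudogene. It lies 29.36 Mb from the other rows on the same chromosome, and made up 66.8% of all counts over the 9 rows. No stem-loop of the form above was found in the 339 bases of the pseudogene, and the rest of the row was not searched. Both annotations call it a pseudogene, which goes against the label for this row, and it is described apart from the others below.

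The other 8 rows are protein-coding genes within 50.76 kb of chromosome 13 (chr13:21786774-21837530), the end of the large histone cluster. The region holds inverted copies, and the rows reflect them unequally. The rows of Hist1h2bq and Hist1h2br had the same span (chr13:21806412-21837530), strand and length of 4.346 kb, although RefSeq places Hist1h2bq at chr13:21806412-21810199 and Hist1h2br at chr13:21833743-21837530. The rows of Hist1h2ao and Hist1h2ap spanned 23209 and 23009 bases, with a length 1.996 times that of the RefSeq gene in each case, so each covered both copies. The rows of Hist1h4m and Hist1h4n were single, at chr13:21811746-21812150 on the plus strand and chr13:21831792-21832197 on the minus strand, but both lay inside the 4 wider rows.

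**Figure D1:**
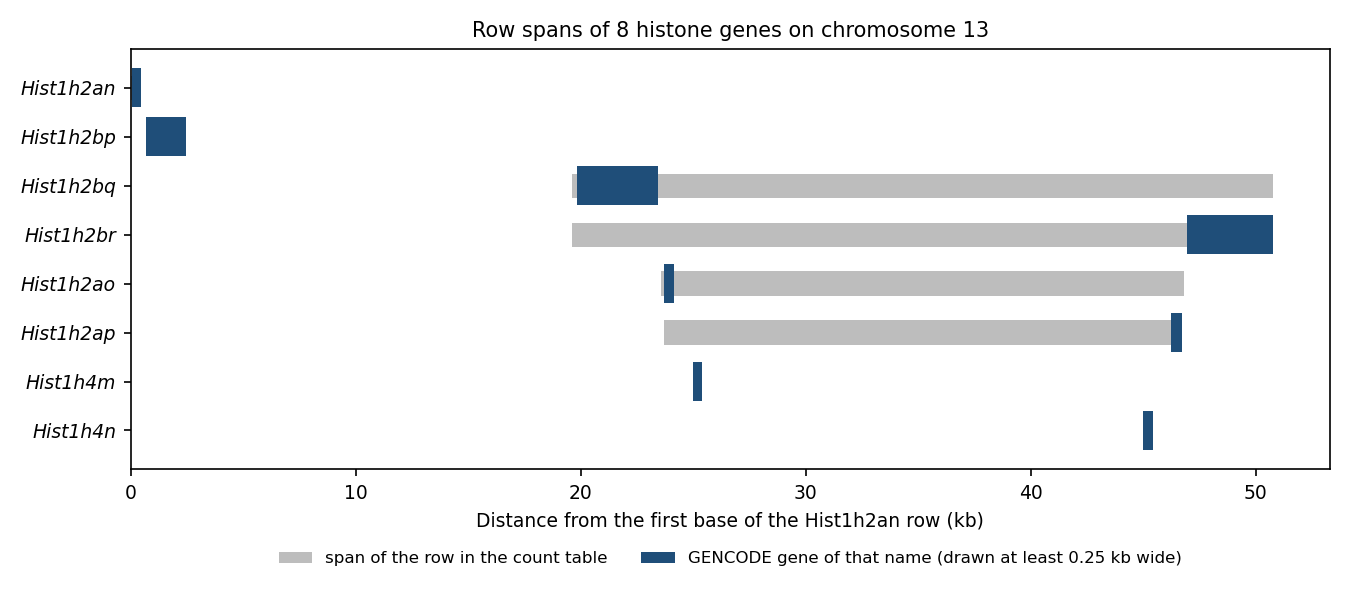
Spans of the 8 cluster rows along chromosome 13, as distance in kb from the first base of the Hist1h2an row. Grey bars are the spans given in the count table and blue bars the GENCODE gene of that name; the grey bars of Hist1h2bq and Hist1h2br coincide, and those of Hist1h2ao and Hist1h2ap nearly do.

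Histone genes also resemble one another in sequence, which bears on what each row can count. Of all 50-base windows along the transcripts of a gene, the share found in a transcript of another gene was 97.3% for Hist1h2bq, 93.5% for Hist1h2ao, 93.1% for Hist1h2ap, 89.8% for Hist1h4m, 88.7% for Hist1h2br, 85.8% for Hist1h2an and 85.6% for Hist1h4n. It was lower for Hist1h2al at 67.6%, over the 339 bases of its pseudogene and not its whole row, and for Hist1h2bp at 44.1%. With 100-base windows the share fell to 19.2% for Hist1h2al and to 31.1% for Hist1h2bp, and ranged from 80.7% to 94.8% in the other 7 genes. The 2 H4 transcripts differed at 1 of the 402 bases that were compared, G36A from Hist1h4m to Hist1h4n with positions counted from 1 at the 5′ end, shown in capitals here with 10 bases on either side.
Hist1h4m, chr13:21811771-21811791, plus strand: ttttgtcttcGtcatgtctgg
Hist1h4n, chr13:21832151-21832171, minus strand: ttttgtcttcAtcatgtctgg

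Within the compared bases, a read from one H4 gene that does not cover this base cannot be assigned between them. The Hist1h4n transcript is annotated for 28 bases more, most of them outside the span of its row. Those bases were not compared with the sequence after the end of the Hist1h4m transcript. The H4 rows are accordingly read as a pair below, and the level of each alone is uncertain. Summing does not remove the overlap with other H4 genes. Each of the pair shared 50-base windows with 11 genes and 100-base windows with 8, its partner included. Hist1h4a, Hist1h4b and Hist1h4c were among them, so reads shared with such genes also bear on the sum. How reads matching several places, or several genes, were counted is not given in the sources used here.

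**Figure D2:**
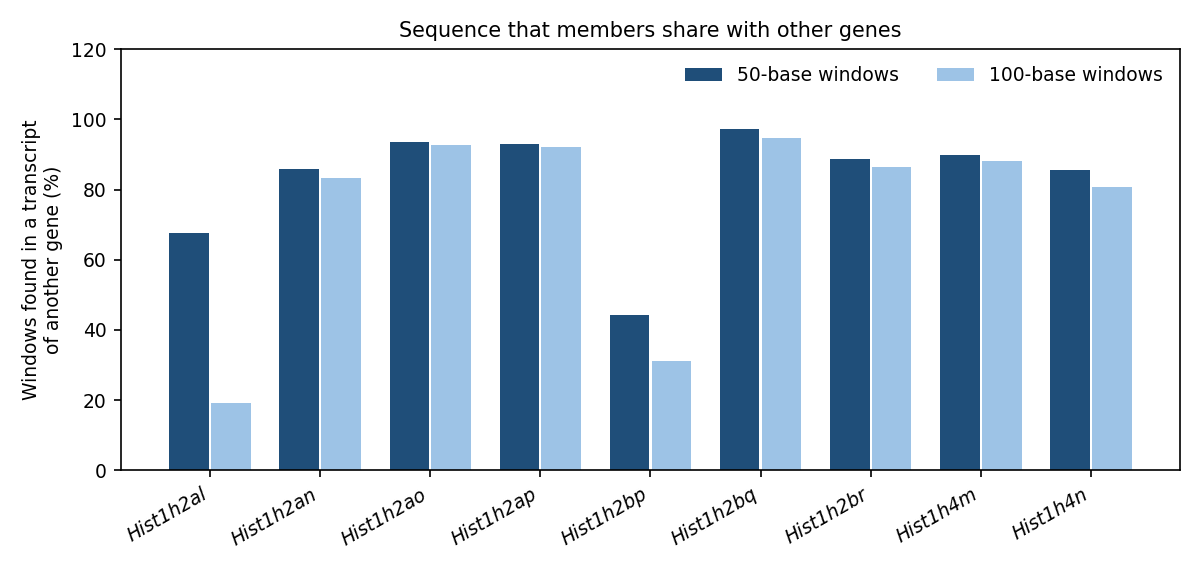
Share of 50-base (dark) and 100-base (light) windows of each gene's transcripts that also occur in a transcript of another gene, in percent. Hist1h2al and Hist1h2bp hold the most sequence of their own, and 7 genes share 80.7% or more at either length.

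The first question was whether these rows were detected at all. Hist1h2bq and Hist1h2br were at 0 counts in all 5 libraries, which is below the floor of 3 counts (0.107 to 0.158 CPM). Both rows cover the same bases, and a read in 2 features at once is left uncounted under the usual HTSeq setting, but the part this played was not tested. Hist1h2ap had 1 count, in intact replicate 2. Hist1h2ao had 2, 1 and 0 counts in the castrated libraries and 1 and 0 in the intact libraries, none above the floor of 3 counts. These 4 wide rows thus gave no usable level.

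Of the remaining cluster rows, Hist1h2bp, an H2B gene, had 3, 4 and 0 counts in the castrated libraries and 2 and 3 in the intact libraries, or 0.106 ± 0.106 CPM (SD, n = 3) against 0.112 ± 0.0272 CPM (n = 2). The groups overlapped. Hist1h2an, an H2A gene, was at 0 counts in all 3 castrated libraries and at 1 and 3 counts in the intact libraries, so no group rose above the floor and no fold is given. Together with the 4 wide rows, the 6 cluster rows for H2A and H2B summed to 10 counts in the castrated and 11 in the intact libraries.

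The H4 pair was the best measured part of the cluster. Hist1h4n had 11, 1 and 2 counts in the castrated libraries and 10 and 17 in the intact libraries, or 0.393, 0.0528 and 0.0976 CPM against 0.464 and 0.744 CPM. Hist1h4m had 4, 4 and 1 counts against 5 and 9, or 0.143, 0.211 and 0.0488 CPM against 0.232 and 0.394 CPM. In both rows every castrated library lay below both intact libraries, but the counts were few. The 95% Poisson interval of intact replicate 1 was 0.222 to 0.853 CPM for Hist1h4n and held castrated replicate 1, and was 0.0753 to 0.541 CPM for Hist1h4m and held castrated replicates 1 and 2. Such intervals cover counting error only.

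Summed over the pair, the level was 0.535, 0.264 and 0.146 CPM in castrated replicates 1 to 3 and 0.696 and 1.14 CPM in the intact libraries, with means of 0.315 ± 0.20 CPM (SD, n = 3) and 0.917 ± 0.313 CPM (SD, n = 2). The pooled ratio of castrated to intact was 0.369, with a 95% interval of 0.212 to 0.630 for counting error only, from 23 and 41 counts. Of the 23 counts 15 came from castrated replicate 1, and without that library the ratio was 0.220, with an interval of 0.0890 to 0.475. Without intact replicate 2 the ratio was 0.490, with an interval of 0.245 to 1.01. With 3 against 2 libraries an exact two-sided permutation test of ranks cannot go below p = 0.2. That test could not pass a threshold of 0.05, and no other test of the sums was run. The castrated mean minus the intact mean was -0.601 CPM, -0.822 CPM without intact replicate 1 and -0.381 CPM without intact replicate 2, the extremes when 1 library was left out. In bulk tissue, fewer cells in S phase and less histone RNA per cell cannot be told apart.

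Scaled for gene length as well as depth (TPM), the pair was at 3.04, 1.57 and 0.837 TPM in the castrated and 4.10 and 5.53 TPM in the intact libraries, so its order across libraries was kept. The promoters of the pair are near-identical, with a shared run of 285 bases in the 300-base RefSeq windows (250 bases before to 50 after the start, GRCm38.p6). The part of the promoters in the lower level of the pair was not tested. The last 60 bases before the start are shown with TATAA in capitals.
Hist1h4m, chr13:21811686-21811745, plus strand: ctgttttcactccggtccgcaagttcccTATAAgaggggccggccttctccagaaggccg
Hist1h4n, chr13:21832198-21832257, minus strand: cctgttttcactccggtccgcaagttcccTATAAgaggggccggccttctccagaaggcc

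The TATAA begins 32 bases before the start of Hist1h4m and 31 bases before that of Hist1h4n. A window was given for the 8 cluster genes and matched all 8 on TATAA, on either strand, against 24.9% of 32851 windows. CCAAT was found in 6 of the 8 and in 37.4% of all windows, on either strand, and the H4 pair were the 2 without it. These are matches of letters in a window, not sites. Nor are the 8 windows separate sequences. Those of Hist1h2bq and Hist1h2br were identical over 300 bases, and those of the H4 pair over 285. The windows of Hist1h2an and Hist1h2bp, of Hist1h2ao and Hist1h2bq, and of Hist1h2ap and Hist1h2br overlap on the chromosome. A match there can count for both genes, so the shares are not counts of independent promoters.

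**Figure D3:**
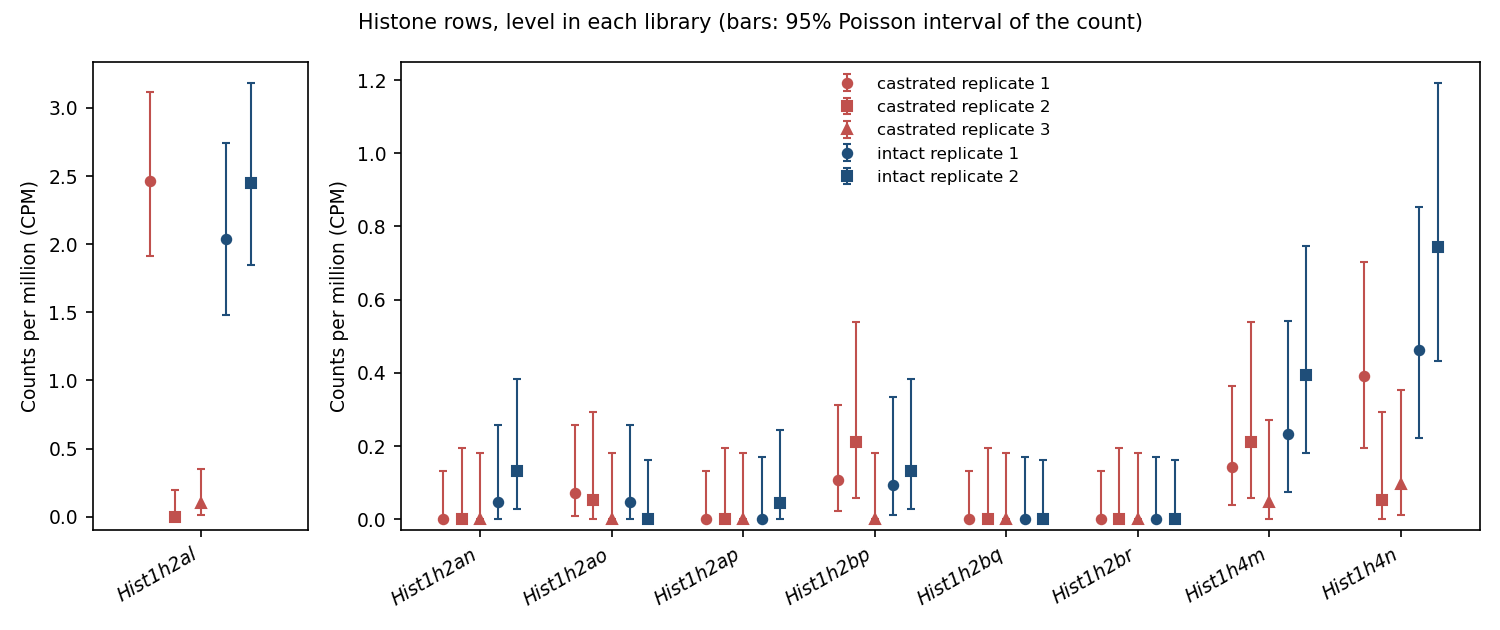
Level of each of the 9 rows in each library in CPM, with castrated libraries in red, intact libraries in blue and bars for the 95% Poisson interval of the count. Hist1h2al has a separate axis; in the H4 rows each castrated point lies below both intact points, and Hist1h2bq and Hist1h2br are at 0 throughout.

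The comparison of castrated with intact tumors asks how loss of androgen changed these tumors. For the histone rows it rests on 1 test, because only Hist1h2al passed the filter of more than 1 CPM in at least 2 libraries. It had 69, 0 and 2 counts in the castrated libraries and 44 and 56 in the intact libraries, or 2.46, 0 and 0.0976 CPM against 2.04 and 2.45 CPM. Castrated replicate 1 lay above both intact libraries while the other castrated libraries lay at or below the floor, so the groups overlapped. The means were 0.854 ± 1.39 CPM (SD, n = 3) and 2.25 ± 0.290 CPM (SD, n = 2), and the log2 fold change was -1.41 with a standard error of 1.68 (edgeR quasi-likelihood test, adjusted p = 0.728).

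The fold change of Hist1h2al depended on castrated replicate 1. Without that library the castrated counts were 0 and 2, both under the floor of 3 counts, and the row passed the filter through the intact libraries alone, so no fold change or p is read from that fit. Without each of the others it ranged from -1.57 to -0.845. The library that stood apart in Hist1h2al is the one that stood apart in adipocyte genes, and the part this played was not tested. Among the cluster rows, Hist1h4n lay just outside the filter, with a highest level of 0.744 CPM. With the filter at 0.25 CPM it entered the fit at a log2 fold change of -1.70 with a standard error of 0.934 (edgeR adjusted p = 0.447).

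Genes were called when the adjusted p was under 0.05 and the log2 fold change was above 1 in size. By this rule 0 of the 9 rows were called, where 0% of the 14612 genes tested were called. The smallest adjusted p of any gene was 0.320, or 0.289 with the newer quasi-dispersion of the same edgeR test, which also called 0 genes. The 1 row that was tested did not reach an unadjusted p of 0.05 in either direction, compared with 5.93% of genes that did so lower and 8.29% higher in castrated tumors. Every castrated library lay below both intact libraries in 3 of the 6 rows that had counts but failed the filter (Hist1h2an, Hist1h4m and Hist1h4n), where the same was true of 7.41% of 5179 such rows. The H4 pair shares its sequence, and Hist1h2an rests on 4 counts, so these are not 3 separate observations.

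Most factors that make and process histone mRNA had far higher levels than the cluster rows. Of the 19 genes listed for histone transcription and 3′ processing, 18 had a row and 17 were tested, and their log2 fold changes had a median of -0.16 beside -0.03 for all genes. The median was -0.06 without castrated replicate 1, with 12 lower and 5 higher, and -0.07 without intact replicate 2, with 10 lower and 7 higher. With all libraries 14 were lower in castrated tumors and 3 higher, with 2 lower at an unadjusted p under 0.05 (5.93% of all genes), or 0 without castrated replicate 2 or 3 and 1 without either intact library, and 0 under an adjusted p of 0.05 in edgeR's quasi-likelihood test. DESeq2 put Srrt alone under it (adjusted p = 0.0277, against 8.01% of all genes in either direction), at a fold change too small to be called, and edgeR's likelihood ratio test put none. In 5 of the 17 every castrated library lay below both intact libraries, against 15.3% of all genes tested. In none of the 17 did every castrated library lie above, against 17.8% of all genes.

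Npat, the coactivator that links cyclin E-CDK2 to histone transcription, was at 37.5, 42.4 and 37.6 CPM in the castrated and 42.8 and 45.9 CPM in the intact libraries. The groups did not overlap, but the log2 fold change was small at -0.21 with a standard error of 0.20 (edgeR adjusted p = 0.671), and it was -0.12 without intact replicate 2. Hinfp, the zinc-finger factor of H4 promoters, was at 21.5, 28.0 and 25.2 CPM against 37.4 and 36.4 CPM (log2 fold change -0.59, SE 0.22, edgeR adjusted p = 0.345). Hinfp was therefore lower in all 3 castrated libraries, as was the H4 pair, but did not pass the adjusted threshold.

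Slbp was at 31.4, 36.7 and 34.3 CPM in the castrated and 28.1 and 41.4 CPM in the intact libraries, with the castrated libraries between the intact ones. Its log2 fold change was -0.06 with a standard error of 0.28 (edgeR adjusted p = 0.940). Zfp473, a zinc-finger protein that joins SLBP to the cleavage machinery, was near the filter at 0.393, 1.0 and 0.830 CPM against 1.16 and 1.84 CPM (log2 fold change -1.05, SE 0.66, edgeR adjusted p = 0.502, or -0.64 on the log2 scale without intact replicate 2). Lsm10, a component of the U7 snRNP that pairs with histone pre-mRNA, had the highest log2 fold change of the list at 0.30 with a standard error of 0.39 (edgeR adjusted p = 0.749). Without intact replicate 1 its log2 fold change was -0.09. The U7 RNA gene Rnu7 was at 0 counts in all 5 libraries.

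Srrt, which joins the cap-binding complex to RNA processing, was at 109, 87.5 and 93.4 CPM against 149 and 138 CPM (log2 fold change -0.60, SE 0.18, edgeR adjusted p = 0.323). With Hinfp it was the other gene of the list at an unadjusted p under 0.05. The remaining genes of the list, Casp8ap2, Lsm11, Cpsf2, Cpsf3, Sympk, Cstf2, Eri1, Ncbp1, Nelfe, Mif4gd and Upf1, lay between log2 fold changes of -0.38 and 0.15.

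Replication-independent histones were far more abundant than the 9 rows together, at a summed level of 1084 to 1416 CPM against 0.244 to 3.89 CPM, and the sums did not separate the groups. H3f3b was at 788, 816 and 812 CPM in the castrated and 869 and 615 CPM in the intact libraries (log2 fold change 0.11, SE 0.26, edgeR adjusted p = 0.881). H3f3a, the other H3.3 gene, was at 306, 212 and 225 CPM against 229 and 325 CPM, and H1f0, the linker histone of resting and differentiated cells, at 268, 147 and 202 CPM against 303 and 114.9 CPM. Both overlapped, with log2 fold changes of -0.20 (SE 0.30, edgeR adjusted p = 0.780) and -0.02 (SE 0.45, edgeR adjusted p = 0.987). H3f3c had less than 1 CPM in every library. Of the 21 genes listed, the other 16 were not analysed here.

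Cenpa was the exception among these histones. It encodes the centromeric H3, which is made in G2 and not in S phase, and it was at 4.53, 8.23 and 9.27 CPM in the castrated and 14.1 and 27.5 CPM in the intact libraries. The groups did not overlap, with a log2 fold change of -1.54 and a standard error of 0.50 (edgeR unadjusted p = 0.0254, adjusted p = 0.328). Without intact replicate 2 the log2 fold change was -0.93.

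Of 19 histone chaperone genes, which carry new histones to DNA, 17 were lower and 2 higher, and their log2 fold changes had a median of -0.24. Every castrated library lay below both intact libraries in 8 of them (15.3% of all genes), and 3 were lower at an unadjusted p under 0.05 (5.93% of all genes), or 0 without castrated replicate 1 or 2 and 1 without castrated replicate 3 or intact replicate 2. Genes called numbered 0 with edgeR's quasi-likelihood and likelihood ratio tests and 2 with DESeq2, where 1.96% of all genes were called lower. Chaf1a, the large subunit of the replication-coupled CAF-1 complex, was at 8.21, 6.86 and 9.76 CPM against 20.2 and 14.1 CPM (log2 fold change -1.06, SE 0.31, edgeR adjusted p = 0.323). Rbbp7, a histone-binding protein that works with the acetyltransferase HAT1, was at 206, 200 and 221 CPM against 282 and 452 CPM (log2 fold change -0.85, SE 0.30, edgeR adjusted p = 0.333), and its log2 fold change was -0.43 without intact replicate 2. The groups overlapped in the nucleosome assembly protein Nap1l1, at 476, 280 and 310 CPM against 432 and 290 CPM, and in Rbbp4, a CAF-1 subunit, at 281, 246 and 252 CPM against 170 and 316 CPM (log2 fold change 0.05, SE 0.35, edgeR adjusted p = 0.958). Without intact replicate 1 the log2 fold change turned to -0.35 for Rbbp4, and from -0.04 to 0.22 for Nap1l1.

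The histone rows can be set beside the cell-cycle genes of the same libraries, since replication-dependent histone mRNA belongs to S phase. All 28 S-phase genes tested were lower in castrated tumors, and the median of their log2 fold changes was -0.74. Of these, 12 were lower at an unadjusted p under 0.05 (5.93% of all genes) and 19 had every castrated library below both intact libraries (15.3% of all genes). The number called was 0 with edgeR's quasi-likelihood test, 3 with its likelihood ratio test, where 0.636% of all genes were called lower, and 6 with DESeq2 (1.96%). Without castrated replicate 1, 26 of the 28 were lower, 6 of them at an unadjusted p under 0.05. All 28 were lower without castrated replicate 2 or 3 (6 and 8 at that p), 26 without intact replicate 1 (10) and 27 without intact replicate 2 (7). Summed over the list the level was 416, 457 and 558 CPM in castrated replicates 1 to 3 and 707 and 737 CPM in the intact libraries.

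Dtl, which targets the licensing factor CDT1 for degradation, had the smallest p of the S-phase list, at 4.96, 4.12 and 4.0 CPM in the castrated and 13.9 and 14.4 CPM in the intact libraries. Its log2 fold change was -1.72 with a standard error of 0.32 (edgeR adjusted p = 0.320). Pcna, the sliding clamp of the replication fork, was at 66.8, 89.8 and 74.8 CPM against 107 and 91.6 CPM (log2 fold change -0.38, SE 0.21, edgeR adjusted p = 0.458). Rrm1, the large subunit of ribonucleotide reductase, was at 49.7, 48.3 and 60.1 CPM against 71.3 and 64.3 CPM (log2 fold change -0.38, SE 0.19, edgeR adjusted p = 0.417). In these 3 genes the groups did not overlap, while in Mcm6, a subunit of the replicative helicase, they did, at 36.2, 48.4 and 62.3 CPM against 47.5 and 59.99 CPM (log2 fold change -0.16, SE 0.31, edgeR adjusted p = 0.838).

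All 16 G2/M genes were lower, and the median of their log2 fold changes was -1.67. All 16 were lower at an unadjusted p under 0.05 (5.93% of all genes) and had groups that did not overlap (15.3%). The number called was 0 with edgeR's quasi-likelihood test, 8 with its likelihood ratio test (0.636% of all genes) and 14 with DESeq2 (1.96%). Without castrated replicate 1 all 16 were again lower, 15 at an unadjusted p under 0.05. All 16 were also lower without castrated replicate 2 or 3 (13 and 16 at that p) and without either intact library. Mki67 was at 19.2, 29.97 and 40.4 CPM in the castrated and 104 and 120 CPM in the intact libraries (log2 fold change -1.94, SE 0.36, edgeR adjusted p = 0.320). Cdk1, the mitotic kinase, was at 7.71, 9.39 and 11.7 CPM against 29.3 and 29.0 CPM (log2 fold change -1.62, SE 0.29, edgeR adjusted p = 0.320). Top2a and Ccna2 had log2 fold changes of -1.65 (SE 0.31) and -1.72 (SE 0.42).

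Within the castrated group the H4 pair and the cell-cycle lists ranked the libraries in opposite order. Castrated replicate 1 had the highest H4 level (0.535 CPM) and the highest Hist1h2al (2.46 CPM), and the lowest summed S-phase (416 CPM) and G2/M level (96.5 CPM). Castrated replicate 3 had the lowest H4 level (0.146 CPM) and the highest S-phase (558 CPM) and G2/M level (182 CPM). These are 15 and 3 H4 counts, with 3 libraries, and no correlation is given.

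**Figure D4:**
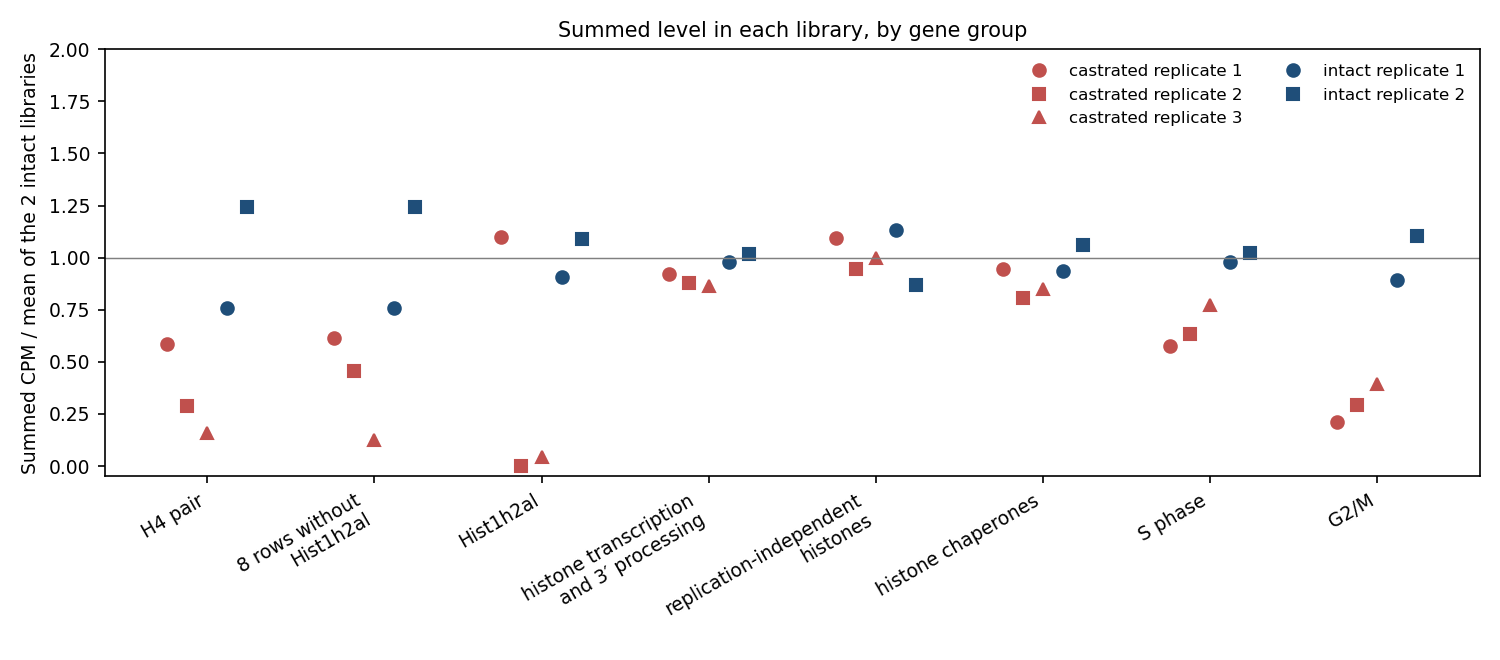
Summed CPM of each gene group in each library, divided by the mean of the 2 intact libraries (castrated in red, intact in blue). The H4 pair, S phase and G2/M lie lower in all 3 castrated libraries, Hist1h2al does not in castrated replicate 1 (1.10), and the replication-independent histones overlap.

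**Figure D5:**
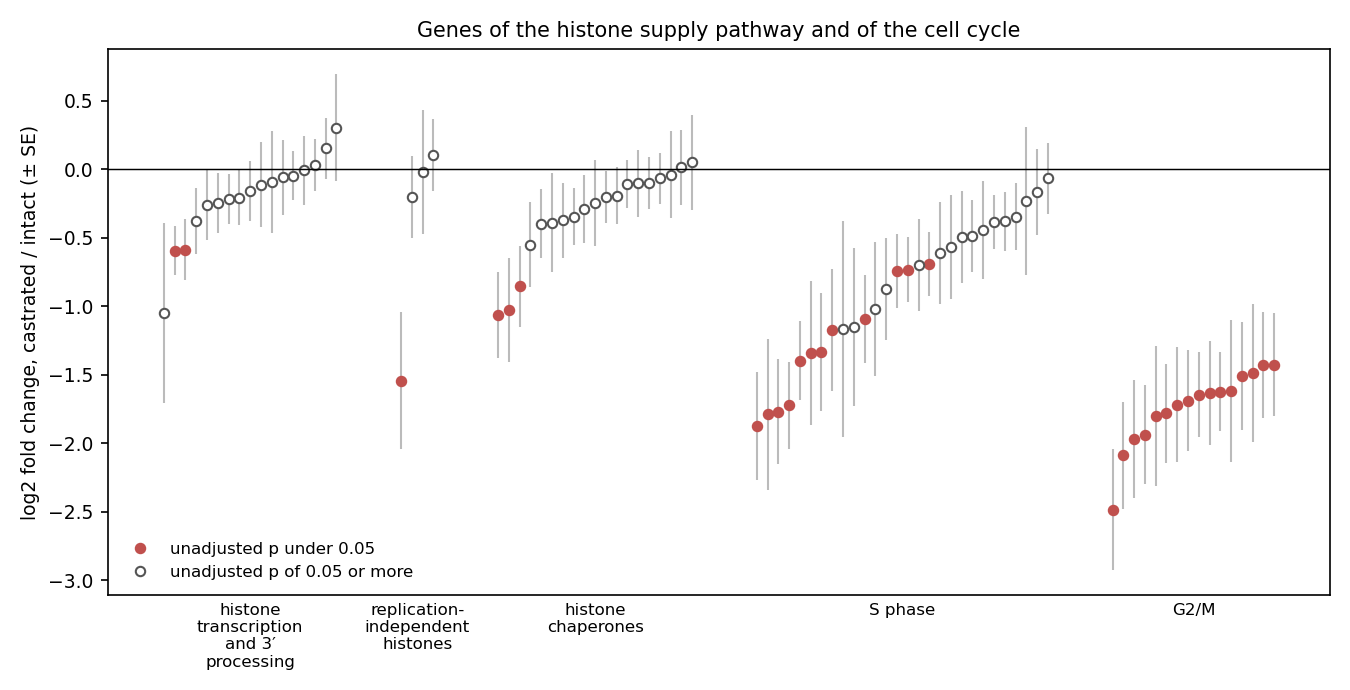
Log2 fold change (castrated over intact) with its standard error from the edgeR fit for each tested gene of 5 lists, sorted within each list. Filled points have an unadjusted p under 0.05; the median is -0.16 for histone transcription and processing, -0.74 for S phase and -1.67 for G2/M, and no gene was under an adjusted p of 0.05 in this fit.

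The levels of other cell types' genes are given beside these values. In edgeR's quasi-likelihood test 0 of them were under an adjusted p of 0.05, whereas 8 macrophage, 9 smooth muscle, 7 adipocyte and 4 B and T cell genes were higher at an unadjusted p under 0.05 (8.29% of all genes). DESeq2 gave an adjusted p under 0.05 to 5, 8, 7 and 4 genes of these lists (8.01% of all genes). The sums of the macrophage and smooth muscle genes did not overlap between the groups, whereas those of the B and T cell and of the adipocyte genes did. Summed over 11 macrophage genes, the level was 2750, 7569 and 3137 CPM in the castrated and 1248 and 1641 CPM in the intact libraries, with all 11 higher in castrated tumors and Lyz2 the most abundant. The 10 smooth muscle genes summed to 500, 849 and 897 CPM against 293 and 192 CPM, all 10 higher, with Acta2 the most abundant. The 12 B and T cell genes summed to 30.5, 117 and 135 CPM against 14.7 and 41.7 CPM, with 11 higher and Cd4 the most abundant. The 11 adipocyte genes were all higher as well, with Car3 the most abundant. The part of these cell types in the lower H4, S-phase and G2/M levels was not tested. Germ cell genes, where some histone genes are also expressed, were near 0, with 0 of 9 passing the filter, Tnp1 and Tnp2 at 0 counts in all libraries, and a summed level of at most 0.976 CPM, Dazl being the most abundant.

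Other RNAs without a poly(A) tail were checked for retention in these libraries. Of 17 listed genes 10 had a row, 5 of them were at 0 counts in all libraries, and only Lars2, whose own mRNA is polyadenylated, passed the filter. The list therefore cannot show whether RNAs without a poly(A) tail were retained. Lars2 was at 3220, 1618 and 2385 CPM in the castrated and 1243 and 631 CPM in the intact libraries. Its groups did not overlap, and its log2 fold change was 1.35 with a standard error of 0.485 (edgeR unadjusted p = 0.0361). DESeq2 put it under an adjusted p of 0.05 (8.01% of all genes), and edgeR's quasi-likelihood and likelihood ratio tests did not. The log2 fold changes of all 4 nuclear-retained RNAs were below 0, with a median of -1.09. In edgeR's quasi-likelihood test 0 of the 4 were under an adjusted p of 0.05, and in DESeq2 1 was (8.01% of all genes). Without intact replicate 1, 3 were below 0 and 1 above, with a median of -0.67, and without intact replicate 2 the median was -0.55. The turn was in Meg3, which was at 19.1, 8.76 and 18.6 CPM in the castrated libraries against 101 CPM in intact replicate 1 and 11.7 CPM in intact replicate 2 (named after its values were seen). Kcnq1ot1, the imprinted antisense RNA of Kcnq1, was at 24.1, 17.8 and 19.4 CPM in the castrated and 33.95 and 44.7 CPM in the intact libraries. Its groups did not overlap (log2 fold change -0.98, SE 0.26, edgeR unadjusted p = 0.0121, adjusted p = 0.320). Malat1, the most abundant of the 4, overlapped and was at 2120, 1490 and 1154 CPM in the castrated and 2060 and 1654 CPM in the intact libraries. The low level of the histone rows is thus given for 9 rows and says nothing of the 61 genes that were not analysed here.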

How the data were processed

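RNA from 3 castrated and 2 intact TripleTg prostate tumors was analyzed. Libraries were depleted of ribosomal RNA by the authors, whose notes name Trimmomatic 0.39 for trimming, STAR 2.7.9 for alignment to mm10 and HTSeq 2.0.2 for counting. The deposited values are raw counts, with a gene length in kilobases that was used for TPM and for the length correction. Strand setting, counting mode and treatment of multi-mapped reads are not given in the sources used here. Replicates were separate mice as far as the labels show, and no replicate pair held the same library (chi-square per gene of 133 or more).

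Genes with more than 1 CPM in at least 2 libraries entered edgeR's quasi-likelihood test (edgeR 4.0.16, R 4.3.3) with TMM scaling and Benjamini-Hochberg adjustment over 14612 genes. The fit was checked on simulated data. Alternatives used limma 3.58.1 and DESeq2 1.42.0, other scalings and filters, and left out each library. Poisson intervals are exact at 95%. Coordinates count from 1 on mm10 (GRCm38). RefSeq and GENCODE M21 gave annotation and sequences.

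The members and gene lists were chosen with earlier results of these data known. Named genes were all those of the histone processing and replication-independent lists, and of other lists the 3 most abundant and the one with the smallest p, from which the text gives those of the chaperone, S-phase and G2/M lists, and of the rest the most abundant, with Kcnq1ot1 as the smallest p of the nuclear-retained RNAs. The stem-loop definition, window lengths, class sums and the background over filtered-out rows were chosen after values were seen. The ages come from the study's text, not the sample labels. One marker gene of the prostate list is not reported here.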

Additional observations from a re-analysis of the deposited data

How the results depend on the processing

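Under 12 other settings (the newer quasi-dispersion was added after seeing the data) and 5 fits that each left out a library, 0 histone rows were called. Over all genes, DESeq2 called 989 and edgeR's likelihood ratio test 369 (365 of them shared). Between 0 and 1 gene was called when a library was left out, the 1 being Coch without intact replicate 1 (named after its values were seen). The log2 fold change of Hist1h2al, the only row tested in the reported fit (7 rows entered with no filter, and 2 with filterByExpr or more than 0.25 CPM), was -3.24 with limma voom and lay between -5.34 and -0.845 when 1 library was left out, with 0 to 1 rows lower at an unadjusted p under 0.05. The -5.34 and the 1 row come from the fit without castrated replicate 1, where the castrated counts were under the floor and the filter was passed through the intact libraries alone, and nothing is read from them. The summed level of the 9 rows (castrated minus intact, -2.09 CPM) was -0.70 CPM without Hist1h2al and -4.35 in TPM.

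When 1 library was left out, median log2 fold changes ranged from -0.281 (without intact replicate 1) to -0.0561 (castrated replicate 1) for histone transcription and processing, from -0.334 (intact replicate 2) to -0.00855 (castrated replicate 2) for replication-independent histones, from -0.323 (intact replicate 1) to -0.24 (intact replicate 2) for chaperones, from -1.23 (castrated replicate 3) to -0.553 (intact replicate 2) for nuclear-retained RNAs, from 1.58 (castrated replicate 2) to 9.37 (castrated replicate 1) for adipocyte genes and from 1.35 (castrated replicate 2) to 4.69 (intact replicate 2) for B and T cell genes. The direction turned for single genes in the same fits, with ranges of -0.345 to 0.286 for Slbp, -0.468 to 0.110 for H3f3a, -0.106 to 0.318 for H3f3b, -0.562 to 0.762 for H1f0, -0.0908 to 0.847 for Lsm10, -0.368 to 0.0477 for Mcm6, -0.354 to 0.616 for Rbbp4, -0.288 to 0.218 for Nap1l1 and -2.71 to 0.332 for Meg3. Without intact replicate 2 the values nearest 0 were reached by Cenpa (-1.97 to -0.929), Rbbp7 (-1.19 to -0.429), Zfp473 (-1.38 to -0.644) and Npat (-0.301 to -0.125), which kept their direction. With limma voom H1f0 was at 0.0599 and the adipocyte median at 6.01. The median of the non-polyadenylated RNA list was 1.35 in the reported fit, from Lars2 alone. It was 0.650 with no filter, 0.647 with filterByExpr and 0.649 with more than 0.25 CPM, where more of its genes were tested. The cause of these shifts was not tested.

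Replicate numbers are shared between the groups but mark different mice, and same-numbered deviations correlated at 0.178 and -0.0328. With the replicate block 0 genes were called and 940 had an unadjusted p under 0.05 in place of 2079, Hist1h2al was at -2.29, H1f0 at 0.0644 and Nap1l1 at 0.0226.

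Depth is a limit for the cluster rows: 6 of the 8 had counts, and a level under 0.107 to 0.158 CPM could not be read in 1 library.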
